A study of Mus musculus with 24 samples.

Results

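The ventral prostates of BALB/c and C57BL/6 mice were compared on Affymetrix mouse expression arrays, 4 BALB/c arrays against 4 C57BL/6 arrays out of 24 in the series. The members were the arrays whose titles name these strains. Both groups were wild-type, untreated mice, 8 weeks old, on a standard diet. Each array is labelled as a biological replicate, and the substrain, the number of animals behind an array and the day of dissection are not stated in the labels. The other 16 arrays hold 4 replicates each of AKR, SWR, 129X1 and FVB, and they enter here only through the shared estimate of spread and as levels to set the 2 strains against. The series title gives its purpose as finding modifiers of cancer from expression in parental strains. Both strains are inbred laboratory lines, albino BALB/c with the d haplotype of the major histocompatibility complex (H2) and black C57BL/6 with the b haplotype, and both are standard backgrounds for mouse models of cancer.

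The ventral prostate is a lobe of branched ducts whose tall luminal cells fill the lumen with secreted protein under androgen control. Those cells carry a large endoplasmic reticulum, where chaperones fold the secreted proteins and the unfolded protein response adjusts chaperone supply to load. Around the ducts lie basal cells and a sheath of smooth muscle, and the lobe sits in fat and near skeletal muscle, so that dissected tissue can hold RNA of all these cells. The labelled tissue was checked against Spink1 and against seminal vesicle genes, while secretion of other prostate lobes is taken up below. Spink1, a trypsin inhibitor made in bulk by prostate and pancreas, read between 9960 and 11209 in BALB/c and between 5366 and 6562 in C57BL/6. Among 6 genes of the seminal vesicle, the neighbouring gland, the mean intensities lay between 1.25 and 42.9 in BALB/c and between 1.03 and 39.0 in C57BL/6.

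Of 22626 probe sets, 2215 (9.79%) differed between the strains at an adjusted p below 0.05 in limma, 1047 higher in BALB/c (4.63%) and 1168 lower (5.16%). A probe set is a group of short probes for the same transcript, and a called probe set is one past that threshold. A difference of 1 on the log2 scale, a doubling, was passed by 376 called probe sets (1.66%), 190 of them higher (0.84%) and 186 lower (0.822%). Among the 12393 genes with a name, taken at their brightest probe set, 1193 were called (9.63%), 608 higher (4.91%) and 585 lower (4.72%), and these shares are the background for every gene list below. At least 2-fold were 189 of them (1.53%), at least 4-fold 23 higher (0.186%) and 9 lower (0.0726%). The median log2 difference over these genes was 0.03. The same fit gave between 958 and 3083 called probe sets for the other 14 pairs of strains, which share arrays with one another, and BALB/c against C57BL/6 ranked 3 of 15. Without the rescaling described next, 732 probe sets were higher in BALB/c and 1761 lower, so that 29.4% of the calls were on the higher side in place of 47.3%.

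**Figure D1:**
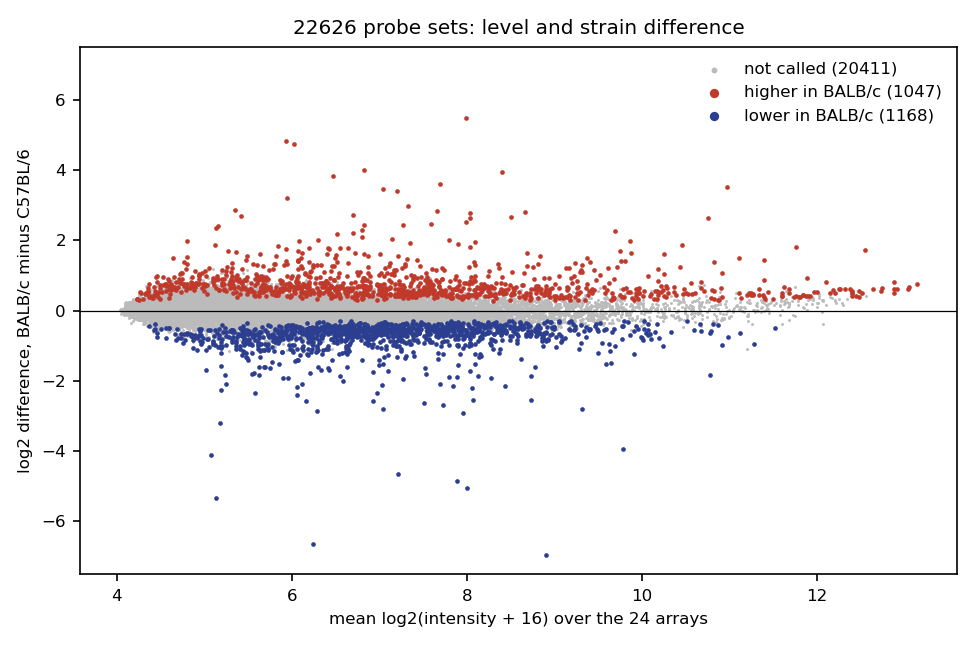
Each point is 1 of 22626 probe sets, by its mean log2(intensity + 16) over 24 arrays (horizontal) and its log2 difference, BALB/c minus C57BL/6 (vertical). The 1047 probe sets called higher in BALB/c are red and the 1168 called lower are blue. Among the 100 brightest, 45 are called higher and 0 lower.

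The brightest signals were higher in BALB/c as a group, and this bears on every abundant transcript named below. The 20 brightest probe sets took 5.38 ± 0.31% of all signal in BALB/c and 3.71 ± 0.21% in C57BL/6 (SD, n = 4 each, exact two-sided permutation p = 0.0286, the smallest that 4 against 4 arrays allow, 0.0571 after adjustment over 4 array measures). The 2% trimmed mean of the deposited intensities was 92.7 ± 1.6 in BALB/c and 99.2 ± 1.2 in C57BL/6 (same p and adjusted p), and every array was therefore rescaled to a common trimmed mean. Since the deposited arrays all have the same untrimmed mean, more signal in the brightest probe sets goes with a lower trimmed mean. The signal share and the trimmed mean are thus not independent measures. The 3'/5' signal ratio, a measure of RNA integrity, was 0.977 ± 0.036 in BALB/c and 0.919 ± 0.032 in C57BL/6 for Gapdh (exact permutation p = 0.0571, adjusted 0.0762) and 1.42 ± 0.24 in BALB/c and 1.22 ± 0.10 in C57BL/6 for Actb (exact permutation p = 0.2, adjusted 0.2). Of the 20 probe sets brightest in BALB/c, 15 were also among the 20 brightest in C57BL/6. Because all 20 were chosen by their BALB/c level, the 19 of 20 called higher in BALB/c are given as a description only. They include Eef1a1, the translation elongation factor that delivers transfer RNA to the ribosome, at a log2 difference of 0.60 ± 0.13 (SE), Rpl41 at 0.63, Rpl38 at 0.55 and Tpt1 at 0.49, genes that nearly every cell uses. After quantile normalization, which gives all arrays the same distribution, 3 of the 20 remained called higher (Msmb, Pbsn and 1451704_at, none of them among the 20 brightest in C57BL/6), and Eef1a1 stood at -0.10 (adjusted p = 0.51). Over the 100 brightest probe sets the median log2 difference was 0.39 after rescaling and -0.02 after quantile normalization, while over ranks 501 to 12000 they lay between -0.03 and -0.01 under both. The cause of this shift was not tested.

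**Figure D2:**
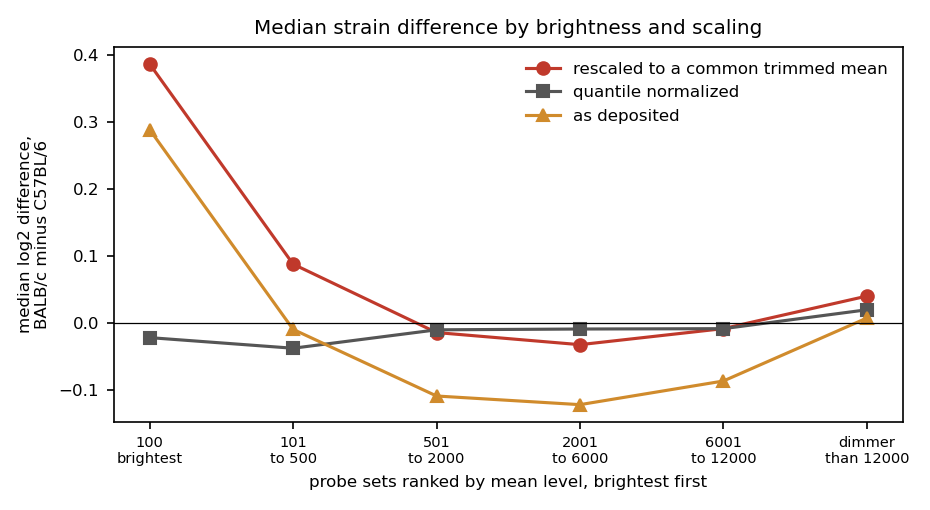
The median log2 difference, BALB/c minus C57BL/6 (vertical), is plotted for probe sets grouped by brightness rank (horizontal), under 3 scalings. Among the 100 brightest it is 0.39 after rescaling, 0.29 as deposited and -0.02 after quantile normalization.

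Secreted proteins of the prostate carried some of the highest readings in both strains. Of 7 measured genes of ventral prostate secretion, 4 were higher in BALB/c and 1 was lower, with a median log2 difference of 0.81 against 0.03 over all genes. That median was 0.13 after quantile normalization, where Spink1 (log2 difference 0.81, adjusted p = 0.0041) stood at 0.13 (adjusted p = 0.48). Msmb, the small cysteine-rich protein beta-microseminoprotein, read 12644, 10760, 11445 and 13216 on the BALB/c arrays and 3704, 3547, 4418 and 2902 on the C57BL/6 arrays. Every BALB/c array was above every C57BL/6 array, by 1.73 ± 0.19 on the log2 scale (SE, adjusted p = 1.8e-06) and by 1.25 after quantile normalization. Pbsn, the androgen-induced lipocalin probasin typical of the dorsal and lateral lobes, read 8292, 7658, 8785 and 6436 in BALB/c, against 1835, 2254, 3051 and 1859 in C57BL/6. The groups lay far apart, by 1.81 ± 0.37 (adjusted p = 0.0023), and Pbsn means in the other 4 strains were between 2558 and 4703. Pbsn is not among the 7 genes of ventral prostate secretion. It belongs, with Msmb, to a list of secretion from other prostate lobes. Of its 6 measured genes these 2 were higher and Apod was lower, with a median log2 difference of 0.14. The summed intensity of that list was 18682 to 21257 in BALB/c and 5258 to 8110 in C57BL/6. Whether the dissected samples held tissue of other lobes was not tested.

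Azgp1 went the other way. It encodes zinc-alpha-2-glycoprotein, a secreted protein with a fold like that of class I histocompatibility molecules, and it read 799, 543, 795 and 853 in BALB/c, against 2698, 2382, 2856 and 2769 in C57BL/6. Its log2 difference was -1.84 ± 0.13 (adjusted p = 1.2e-09), and the other strains averaged between 887 and 3921. Apod, a lipocalin that carries small lipids, was lower too, at 298 ± 47 in BALB/c and 624 ± 112 in C57BL/6 (log2 difference -1.03, adjusted p = 0.0031). Clu, the secreted chaperone clusterin, averaged 1135 ± 205 in BALB/c and 486 ± 38 in C57BL/6 at its brightest probe set (1.18, adjusted p = 6.3e-06), and that was the only 1 of its 4 probe sets called.

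The largest differences between genes with a name are taken next, the 15 largest in each direction among called probe sets whose arrays do not overlap between the strains. Such probe sets numbered 1893 (8.37%), and 1040 genes were of this kind at their brightest probe set (8.39%). The plot of the 15 genes each way shows all of their arrays. None of the 30 lost its call or turned under any of the 16 alternative settings tried, though several rest on 1 of the gene's several probe sets, as given beside them.

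**Figure D3:**
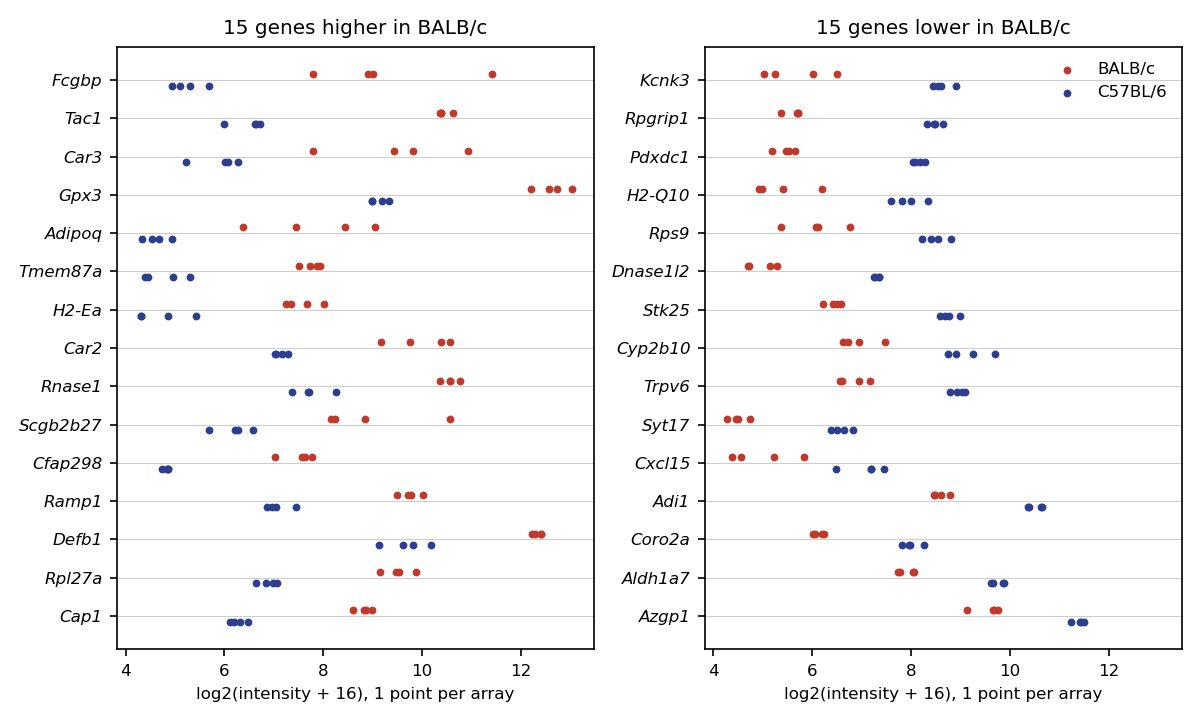
Levels of the 15 genes with the largest positive difference (left) and the 15 with the largest negative difference (right), as log2(intensity + 16) with 1 point per array, BALB/c in red above C57BL/6 in blue. For each gene the 4 BALB/c arrays lie wholly on the stated side of the 4 C57BL/6 arrays. Fcgbp, Car3, Adipoq and Scgb2b27 spread widely within BALB/c.

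Several of the genes higher in BALB/c encode proteins of mucus and mucosal defence, and that list stood at 7 of 28 higher and 0 lower. Fcgbp, a large mucin-like protein that binds the constant part of immunoglobulin G, read 205, 2701, 498 and 463 in BALB/c, against 35.6, 18.5, 23.7 and 14.8 in C57BL/6. The lowest BALB/c array was more than 5 times the highest C57BL/6 array, at a log2 difference of 4.01 ± 0.47 (SE, adjusted p = 3.5e-06). That SE rests on the spread shared by all 6 strains, while the log2 SD was 1.52 in BALB/c and 0.32 in C57BL/6. Under the alternative settings the highest adjusted p in limma was 0.007. BALB/c replicate 2 weighed heavily: without it the difference was 3.30 (adjusted p = 3.5e-07). Defb1, a defensin that kills bacteria at epithelial surfaces, read 4950, 4763, 5378 and 5380 in BALB/c and 770, 885, 1146 and 540 in C57BL/6. Those groups were widely separated (2.64 ± 0.33, adjusted p = 1.1e-05), at 1 of 2 probe sets. Pigr, the receptor that carries immunoglobulin A across epithelium into secretions, averaged 5531 ± 285 in BALB/c and 2658 ± 352 in C57BL/6 (1.06, adjusted p = 4.7e-04). Scgb2b27, a secretoglobin, averaged 627 ± 592 in BALB/c and 58.8 ± 17.9 in C57BL/6, with 1507 on BALB/c replicate 3 and between 270 and 445 on the other BALB/c arrays. Agr2, a protein disulfide isomerase needed for mucin folding, and Tff3, a trefoil peptide that protects mucosa, were higher by 0.81 and 0.67. The membrane mucin Muc4 was higher by 0.83, at only 19.2 ± 7.5 in BALB/c and 3.45 ± 1.18 in C57BL/6. Of the list's 28 members 22 had a positive difference, with a median of 0.16.

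Adipocyte genes were higher on BALB/c arrays, unevenly. Of 10 measured fat cell markers 4 were called higher and 0 lower, all 10 had positive differences, and the median was 0.54. Car3, the carbonic anhydrase that is abundant in fat and muscle, read 1924, 205, 679 and 885 in BALB/c and 49.0, 21.6, 51.7 and 61.0 in C57BL/6 (3.59 ± 0.70, adjusted p = 0.0016). Adipoq, the hormone adiponectin that fat cells secrete, read 513, 67.2, 159 and 333 in BALB/c, against 4.21, 9.48, 14.5 and 7.15 in C57BL/6 (3.21 ± 0.56, adjusted p = 5.2e-04). In both genes BALB/c replicate 1 was highest and replicate 2 lowest, and each BALB/c array stood above all C57BL/6 arrays. Fabp4, the fatty acid carrier of fat cells, followed the same order with 951, 85.9, 351 and 532 in BALB/c, against 63.8, 41.7, 44.1 and 68.0 in C57BL/6. Its log2 difference of 2.43 was 3.06 without BALB/c replicate 2 (adjusted p = 8.9e-04). Lpl, the lipase that frees fatty acids from lipoproteins, averaged 337 ± 130 in BALB/c and 72.8 ± 4.3 in C57BL/6. FVB, the other strain with high readings, averaged 266 for Adipoq and 1115 for Car3 and ranged from 24.8 to 487 and from 91.7 to 2093 over its arrays. In RNA from whole tissue, fewer cells of a type and less RNA per cell cannot be told apart.

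Smooth muscle genes leaned the other way. All 14 measured members had negative differences, 6 were called lower in BALB/c and 0 higher, and the median was -0.40. Myh11, the heavy chain of smooth muscle myosin, read 232, 234, 211 and 210 in BALB/c, against 541, 399, 298 and 504 in C57BL/6 (-0.89 ± 0.19, adjusted p = 0.0042, at 1 of 2 probe sets). Tpm1, a tropomyosin that lies along the actin filament, read 297, 281, 233 and 271 in BALB/c and 468, 462, 411 and 487 in C57BL/6 (-0.72 ± 0.13, adjusted p = 5.1e-04). Neither gene's arrays overlapped between the strains. Acta2, smooth muscle actin, averaged 2185 in BALB/c and 2844 in C57BL/6 and did not pass (-0.38, adjusted p = 0.11). The count fell to 3 without C57BL/6 replicate 1 and to 3 without C57BL/6 replicate 4, the 2 arrays with the highest smooth muscle levels, and it was 2 in a fit to the 8 arrays alone and 3 with a gene's probe sets averaged. Tpm2 (log2 difference -0.78) and Cnn1 (-0.71), other actin-binding proteins of muscle, each lost their call without either of those arrays, at adjusted p of up to 0.076 and 0.055. The BALB/c means of Myh11 and Tpm1 were below those of all 5 other strains, whose Myh11 means ran from 436 in C57BL/6 to 811.

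Other cells of the dissected tissue differed less. The marker score, the mean log2 value of a list after each gene is centred on its mean over 24 arrays, ran from -0.82 to -0.55 in BALB/c and from -0.52 to 0.08 in C57BL/6 for smooth muscle, and from -0.01 to 1.40 in BALB/c and from -0.64 to -0.56 in C57BL/6 for fat. Neither pair of ranges overlapped. Scores of luminal epithelium, fibroblasts, endothelium, macrophages and T cells overlapped. For skeletal muscle the scores ran from -0.56 to 0.04 in BALB/c and from -0.63 to 0.55 in C57BL/6, with C57BL/6 replicate 4 alone above 0.04. Acta1, the actin of skeletal muscle, was the only 1 of 14 skeletal muscle genes called, at 78.8 ± 16.6 in BALB/c and 220 ± 67 in C57BL/6. No member was called among 18 fibroblast and matrix genes, 9 T cell genes, 6 B and plasma cell genes and 8 nerve and neuroendocrine genes, or among the 6 seminal vesicle genes. The part of fat and muscle in the differences of other genes was not tested.

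**Figure D4:**
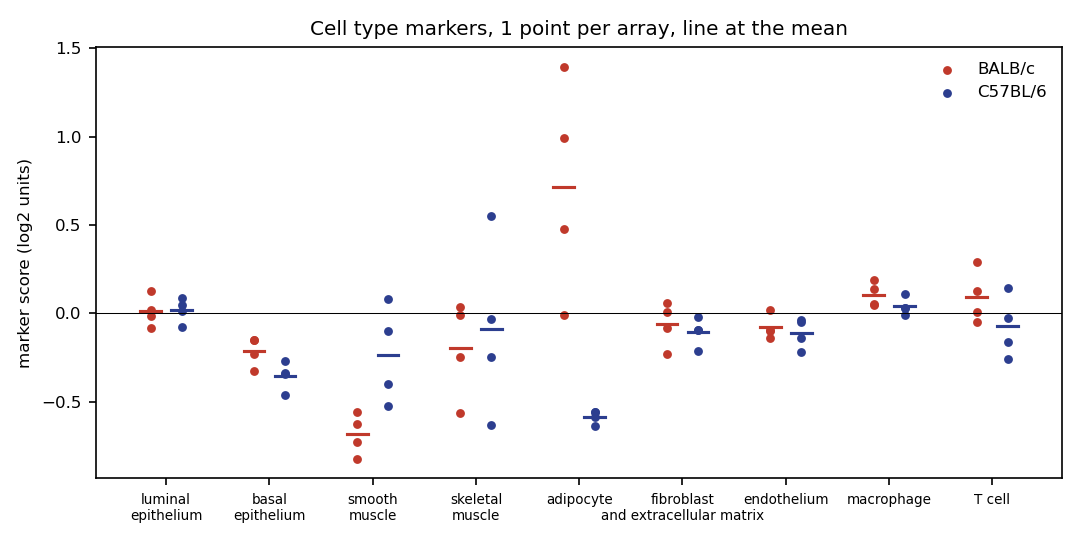
Marker scores (mean log2 value of a list, each gene centred on its mean over 24 arrays, vertical) for 9 cell types, with 1 point per array and a line at the mean, BALB/c in red to the left of C57BL/6 in blue. Fat scores in BALB/c run from -0.01 to 1.40 and smooth muscle scores from -0.82 to -0.55, outside the C57BL/6 ranges.

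Epithelial markers split. Epcam, an adhesion protein of nearly all epithelia, averaged 2207 ± 59 in BALB/c and 1425 ± 130 in C57BL/6 (0.63, adjusted p = 2.2e-04), and of 12 luminal genes 2 were higher and 2 lower. The luminal keratin Krt18 (0.30, adjusted p = 0.015) lost its call without C57BL/6 replicate 4 (adjusted p = 0.057) and after quantile normalization (adjusted p = 0.41). Calls of Krt7 and Cdh1, the adhesion protein E-cadherin, both lower, were lost without 4 and 5 of the 8 arrays in turn, at adjusted p of up to 0.081 without C57BL/6 replicate 3 and 0.16 without C57BL/6 replicate 1. Of 12 basal genes 1 was higher and 2 lower, while 9 had positive differences (median 0.23). With a gene's probe sets averaged, 2 were higher and 0 lower. Itga6, an integrin subunit of the basal surface, was lower at 104 ± 30 in BALB/c and 171 ± 8 in C57BL/6 (-0.67, adjusted p = 0.0068). That call was lost in a fit to the 8 arrays alone (adjusted p = 0.059). Krt14 and Trp63, the keratin and the transcription factor that define basal cells, were called in opposite directions, higher by 0.68 and lower by 0.44, and their calls were lost without 5 and 7 of the 8 arrays in turn, at adjusted p of up to 0.083 without BALB/c replicate 3 and 0.13 without C57BL/6 replicate 2.

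Genes that fold secreted proteins in the endoplasmic reticulum had 9 of 39 measured members higher in BALB/c and 3 lower, with a median log2 difference of 0.11. With the deposited scaling 8 were higher and 7 lower, and after quantile normalization 6 were higher and 4 lower. Their promoters are shown because this group has a well-described promoter element, the ER stress response element (ERSE), which the factors NF-Y and ATF6 bind together. Searching the 250 bases before and 50 after each gene's start in RefSeq's promoters (GRCm38.p6) for CCAAT and CCACG with any 9 bases between them, on either strand, found it in 10 of 33 list members with a promoter (30.3%) and in 37 of 27025 genes (0.137%). It was present in 5 of 7 higher members with a promoter, 0 of 2 lower ones and 5 of 24 that were not called. A match describes letters only. Of 4 elements searched, the CArG box was in 1 of 11 smooth muscle members with a promoter (Myl9, 1 of 5 lower members) and in 1.81% of all genes. TGACNNNGC was in 7 of 27 glutathione and oxidant defence members (25.9%), 3 of 5 higher and 0 of 3 lower ones, and in 13.99% of all genes. The stretches around the ERSE follow for the 5 higher genes and for Hspa5, which was not called, 5′ to 3′ along the gene's strand. The conserved ends are in capitals (CCAAT and CCACG, or CGTGG and ATTGG where the element lies on the opposite strand).
Hsp90b1 (chr10:86705608-86705686, minus strand): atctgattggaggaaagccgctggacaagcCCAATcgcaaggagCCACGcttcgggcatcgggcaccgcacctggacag
Calr (chr8:84847045-84847123, minus strand): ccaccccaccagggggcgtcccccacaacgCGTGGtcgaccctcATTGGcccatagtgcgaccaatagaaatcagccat
Canx (chr11:50325770-50325848, minus strand): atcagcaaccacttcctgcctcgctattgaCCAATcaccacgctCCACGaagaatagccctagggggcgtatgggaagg
Pdia6 (chr12:17266461-17266539, plus strand): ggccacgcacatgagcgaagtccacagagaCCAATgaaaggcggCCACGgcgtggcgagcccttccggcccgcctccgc
Derl3 (chr10:75893212-75893290, plus strand): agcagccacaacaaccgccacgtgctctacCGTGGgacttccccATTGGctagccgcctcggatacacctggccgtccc
Hspa5 (chr2:34771995-34772073, plus strand): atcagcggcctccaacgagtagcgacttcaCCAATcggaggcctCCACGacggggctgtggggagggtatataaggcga

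Pdia4, a protein disulfide isomerase, had the largest rise of this group: it read 527, 455, 497 and 557 in BALB/c, against 191, 228, 192 and 143 in C57BL/6. The groups did not overlap (1.37 ± 0.16, adjusted p = 3.8e-06, at 1 of 2 probe sets). Hyou1, a large chaperone of the HSP70 family, read 1444, 1157, 1468 and 1152 in BALB/c and 367, 556, 548 and 947 in C57BL/6 (1.16 ± 0.22, adjusted p = 0.0015). Derl3, which helps pull misfolded proteins out for breakdown, averaged 893 ± 178 in BALB/c and 457 ± 47 in C57BL/6 (0.93, adjusted p = 0.0019). Pdia6, Txndc5, Canx, Hsp90b1, Calr and Sec61a1, which cover disulfide exchange, lectin chaperones and the import channel, were higher by 0.64 to 0.42. Hspa5, the master chaperone BiP, averaged 4539 ± 487 in BALB/c and 4256 ± 817 in C57BL/6 (0.11, adjusted p = 0.76), and Xbp1, a transcription factor of the same response, 1972 ± 139 and 2083 ± 114 (-0.08, adjusted p = 0.66). Ern1, the sensor IRE1-alpha that splices Xbp1 RNA, was lower: 15.7, 45.5, 11.2 and 11.7 in BALB/c, against 112, 147, 63.4 and 105 in C57BL/6 (-1.77 ± 0.27, adjusted p = 1.3e-04), at 1 of 3 probe sets. Bhlha15, the secretory cell factor Mist1, was lower by 0.82 at 763 ± 72.5 in BALB/c and 1371 ± 212 in C57BL/6. The remaining lower member was Ssr2.

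Amino acid stress and serine synthesis followed with 4 of 23 higher and 0 lower (median 0.17), or 2 higher in a fit to the 8 arrays alone. Nupr1, a small chromatin protein induced by many stresses, read 3061, 2718, 3087 and 2631 in BALB/c, against 756, 674, 609 and 852 in C57BL/6, with a wide gap between the strains (1.98 ± 0.20, adjusted p = 5.4e-07, at 2 of 2 probe sets). Wars, which charges transfer RNA with tryptophan, averaged 1189 ± 211 in BALB/c and 467 ± 39 in C57BL/6 and was called at 4 of 4 probe sets. Psat1, of serine synthesis, and Asns, which makes asparagine, were higher by 0.69 and 0.37. Atf4, the factor that drives this response, averaged 356 ± 29 in BALB/c and 304 ± 58 in C57BL/6 (0.23, adjusted p = 0.49). ATF4 and its partners bind composite elements of the form TGATGNAAN, which was found on either strand in 6 of 19 list members with a promoter and in 4.50% of all genes. Nupr1 and Asns held it among the 3 higher members with a promoter, and 4 of the 16 members that were not called held it as well. The Nupr1 stretch is given, with the element in capitals on the opposite strand.
Nupr1 (chr7:126625543-126625611, minus strand): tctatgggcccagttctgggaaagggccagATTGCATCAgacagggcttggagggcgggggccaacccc

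Glutathione and oxidant defence had 7 of 33 members higher and 3 lower (median 0.06), and 4 higher and 1 lower in a fit to the 8 arrays alone. Gpx3, the secreted glutathione peroxidase, read 6065, 6729, 4679 and 8410 in BALB/c, against 490, 491, 570 and 628 in C57BL/6 (3.51 ± 0.16, adjusted p = 4.4e-13). C57BL/6 was the lowest and BALB/c the highest of the 6 strains, with AKR, SWR, 129X1 and FVB between 1007 and 3750 on average. Gsta4, a glutathione transferase that clears the lipid aldehyde hydroxynonenal, read 220, 193, 263 and 305 in BALB/c and 21.3, 22.8, 52.7 and 30.7 in C57BL/6 (2.47 ± 0.17, adjusted p = 1.1e-09). For Gsta4 the other 4 strains, between 190 and 342 on average, stood with BALB/c. Sod1, the cytosolic superoxide dismutase, averaged 2851 ± 131 in BALB/c and 766 ± 28 in C57BL/6 (1.87, adjusted p = 1.2e-04) at 1 of 2 probe sets. Mgst1, another glutathione transferase, was higher by 0.77 (adjusted p = 0.0088), a call lost in the fit to the 8 arrays alone (adjusted p = 0.07). Gclc and Gclm, the subunits of the enzyme that limits glutathione synthesis, were both higher by 0.55. Gstm1, Cat (catalase) and Txn1 (thioredoxin) were lower by 0.66, 0.64 and 0.51. With the deposited scaling 5 members were lower.

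Neuropeptide genes had 6 of 28 members higher and 1 lower (median 0.12). Tac1, the precursor of substance P, read 1324, 1558, 1321 and 1305 in BALB/c, against 90.1, 84.1, 82.7 and 47.6 in C57BL/6 (3.94 ± 0.17, adjusted p = 1.7e-13). BALB/c had the highest Tac1 mean of the 6 strains, and AKR, at 36.5, lay below C57BL/6. Qpct, which closes the N-terminal glutamine of peptide hormones into a ring, read 63.6, 70.2, 39.96 and 48.9 in BALB/c, against 3.88, 1.24, 1.59 and 1.39 in C57BL/6, near the array's floor (1.97 ± 0.38, adjusted p = 0.0013). The peptidases Anpep and Dpp4, which trim peptides at the cell surface, were higher by 0.58 and 0.55, and Penk, the enkephalin precursor, by 0.49. Tacr1, the receptor of substance P, was called higher at 9.52 ± 1.58 in BALB/c and 4.27 ± 1.25 in C57BL/6, values close to the floor. Tacr3, the neurokinin B receptor, was lower by 0.98, a call lost without any of 6 arrays in turn, at adjusted p of up to 0.13 without BALB/c replicate 4. Ramp1, a partner of the receptor for calcitonin gene-related peptide and no member of the list, averaged 853 ± 132 in BALB/c and 121 ± 26 in C57BL/6 (2.67, adjusted p = 2.5e-11).

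Ion transport genes included large differences both ways, with 5 of 29 members higher and 2 lower (median 0.07). Car2, the fast cytosolic carbonic anhydrase that hydrates carbon dioxide, read 843, 1505, 1317 and 560 in BALB/c, against 127, 141, 117 and 113 in C57BL/6 (2.84 ± 0.21, adjusted p = 2.1e-09). BALB/c stood alone, as the other 4 strains averaged between 116 and 151. Atp12a, the proton pump of the non-gastric type, averaged 164 ± 34 in BALB/c and 35.8 ± 6.4 in C57BL/6 (1.79, adjusted p = 3.8e-06). Kcnk3, an acid-sensitive background potassium channel, read 22.1, 16.7, 74.5 and 49.0 in BALB/c, against 372, 332, 462 and 358 in C57BL/6 (-2.92 ± 0.27, adjusted p = 1.3e-07, at 3 of 3 probe sets). Trpv6, a calcium channel of absorbing epithelia, read 80.6, 127, 78.0 and 107 in BALB/c, against 526, 427, 470 and 503 in C57BL/6 (-2.14 ± 0.17, adjusted p = 5.4e-09). For both channels BALB/c had the lowest mean of the 6 strains, below means of 160 to 585 for Kcnk3 and 222 to 660 for Trpv6. Atp1b1, a sodium pump subunit, and Slc12a2, a chloride cotransporter, were higher by 0.49 and 0.54, and Slc12a2 stood at 0.00 after quantile normalization.

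Polyamine and methionine salvage genes were lower in BALB/c at 4 of 15 and higher at 1 (median -0.16). The ventral prostate makes polyamines in quantity. Odc1, ornithine decarboxylase, the androgen-regulated first enzyme of polyamine synthesis, read 523, 502, 512 and 451 in BALB/c, against 1498, 1409, 1463 and 1380 in C57BL/6. The arrays of each strain lay close together, and the difference was -1.504 ± 0.09 (adjusted p = 7.9e-11) with 3 of 3 probe sets lower. Adi1, which works in the salvage of methionine from the by-product of polyamine synthesis, read 371, 424, 338 and 343 in BALB/c and 1324, 1310, 1569 and 1592 in C57BL/6 (-1.93 ± 0.16, adjusted p = 2.6e-08, at 3 of 3). C57BL/6 had the highest mean for both genes, as the other strains averaged up to 1120 for Odc1 and 378 for Adi1. Mri1, another salvage enzyme, and Mat2b, of methionine activation, were lower by 0.48 and 0.60, and Apip was higher by 0.54. The lower calls numbered 2 without C57BL/6 replicate 1, where Mat2b's adjusted p was 0.051, and 2 in a fit to the 8 arrays alone. The Apip call was lost without BALB/c replicate 2 (adjusted p = 0.052).

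Androgen response genes and luminal regulators were mixed, 2 of 19 higher and 3 lower (median -0.14). Gata2, a transcription factor that opens androgen receptor sites, averaged 297 ± 51 in BALB/c and 125 ± 20 in C57BL/6 (1.14, adjusted p = 7.5e-05, at 2 of 2 probe sets). Tmprss2, a membrane protease induced by androgen, averaged 633 ± 157 in BALB/c and 325 ± 64 in C57BL/6 (0.92, adjusted p = 7.8e-04, at 2 of 2). Fkbp5, a co-chaperone of steroid receptors that androgen induces, was lower at 527 ± 105 in BALB/c and 864 ± 169 in C57BL/6 (-0.70, adjusted p = 0.0016, at 2 of 2), and Ncoa1, a coactivator of steroid receptors, was lower by 0.42. With Odc1 also lower, androgen-induced genes stood on both sides. The lower calls numbered 1 in a fit to the 8 arrays alone and 5 with the deposited scaling.

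Histocompatibility genes differed in both directions. H2-Ea, the alpha chain of the class II molecule E, which mice of the b haplotype lack through a promoter deletion, read 148, 244, 189 and 136 in BALB/c, against 3.75, 3.79, 12.9 and 27.1 in C57BL/6 (2.85 ± 0.28, adjusted p = 2.4e-07). Of its 3 probe sets 2 were called higher and 1 lower. At this probe set AKR averaged 14.6, SWR 19.1, 129X1 9.84 and FVB 21.4, all near the C57BL/6 mean of 11.9. A low reading at this probe set alone does not show that a strain lacks H2-Ea RNA. Whether the deletion underlies such a reading, in C57BL/6 or in another strain, was not tested. The 8 other class II genes did not pass, among them H2-Aa at 308 in BALB/c and 370 in C57BL/6 and Cd74, the invariant chain, at 311 and 348. Of 17 genes of class I and antigen processing 2 were higher, B2m and the chaperone Calr. The 4 lower at their brightest probe sets were H2-Q10, H2-Q2, H2-D1 and H2-K1, or 2 lower with probe sets averaged. H2-Q10, a secreted class I molecule known mainly from liver, read 15.4, 14.2, 26.5 and 57.1 in BALB/c, against 210, 178, 307 and 238 in C57BL/6 (-2.56 ± 0.24, adjusted p = 1.3e-07). B2m, the light chain shared by class I molecules, averaged 4795 ± 1083 in BALB/c and 2498 ± 293 in C57BL/6 (0.92, adjusted p = 9.0e-04, at 2 of 2). H2-D1 had 9 probe sets, of which 3 were called higher and 3 lower, so its lower call at the brightest one gives no direction for the gene. Base differences between haplotypes inside the probes were not tested, since probe sequences were not used here.

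Of 27 genes reported to differ between inbred strains, 3 were higher in BALB/c and 2 lower. Alad, a heme synthesis enzyme whose gene is duplicated in some strains, read 182, 151, 162 and 160 in BALB/c, against 77.2, 75.9, 77.1 and 74.9 in C57BL/6 (0.96 ± 0.10, adjusted p = 6.3e-07), and the other strains averaged between 129 and 191. Nnt, the mitochondrial transhydrogenase that is truncated in the C57BL/6J substrain, read 303, 319, 271 and 297 in BALB/c, against 190, 181, 177 and 200 in C57BL/6 (0.63 ± 0.12, adjusted p = 0.0018, at 1 of 2 probe sets). Naip5, a sensor of bacterial flagellin, averaged 24.4 ± 12.4 in BALB/c and 101.1 ± 6.5 in C57BL/6 (-1.60, adjusted p = 7.0e-06), with the other strains between 21.5 and 33.1. The other members called were H2-Ea and H2-Q10. The 22 others did not pass. Among them Prkdc and Cdkn2a, which carry coding variants in BALB/c known from tumour studies, averaged 34.4 ± 16.5 and 18.5 ± 7.0 in BALB/c and 36.0 ± 5.1 and 17.1 ± 5.75 in C57BL/6 (adjusted p = 0.79 and 0.89). Tyr, the pigment enzyme mutated in albino strains, averaged 54.6 ± 9.0 in BALB/c and 51.5 ± 16.9 in C57BL/6 (adjusted p = 0.84). Fv1, a retrovirus restriction gene, did not overlap between the strains, at 24.7 to 43.1 in BALB/c and 5.50 to 19.3 in C57BL/6, and still missed the threshold (0.77, adjusted p = 0.13). Psca, Glo1, Tlr4, Ide, Pam, Slc11a1, Mx1, Gpnmb, Hc, Apoa2, Cd5l, Klrd1, Ifi202b, Ifi204, Erdr1, Dock2, Pde6b and Crygd had log2 differences between -0.75 and 0.37.

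The shares called among proliferation genes (7.14%) and among cell cycle brakes, tumour suppressors and oncogenes (6.25%) lay near the 9.63% of all genes. Of 28 proliferation genes 1 was higher, Cdk1, and 1 lower, Mcm6, and these calls were lost without 7 and 5 of the 8 arrays in turn, at adjusted p of up to 0.14 without C57BL/6 replicate 1 and 0.080 without BALB/c replicate 4. Of 32 cell cycle brakes, tumour suppressors and oncogenes 2 were higher and 0 lower, or 4 lower with the deposited scaling. Ccnd2, the cyclin that starts the cell cycle with CDK4 and CDK6, read 410, 733, 410 and 609 in BALB/c, against 184, 222, 141 and 160 in C57BL/6 (1.504 ± 0.16, adjusted p = 1.2e-06), with 6 of 7 probe sets higher. The C57BL/6 mean of 177 was the lowest of the 6 strains, with AKR, SWR, 129X1 and FVB between 598 and 1261. Btg1, an antiproliferative gene, averaged 1868 ± 127 in BALB/c and 1138 ± 92 in C57BL/6 (0.71, adjusted p = 4.6e-06). Of 23 immediate early genes only Ier2 was called, lower by 0.50, a call lost without BALB/c replicate 1 or C57BL/6 replicate 4 (adjusted p up to 0.056).

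Lipid and energy genes moved in both directions. In fatty acid synthesis 3 of 17 were higher and 3 lower (median 0.17), or 1 lower in a fit to the 8 arrays alone. Dgat2, the last step of triglyceride synthesis, averaged 236 ± 20 in BALB/c and 113 ± 15 in C57BL/6 (0.97, adjusted p = 7.0e-06), and the elongases Elovl5 and Elovl1 were higher by 0.68 and 0.58. The desaturases Scd2, Scd1 and Fads2 were lower by 0.64, 0.55 and 0.48, though 1 of the 3 Scd2 probe sets was called higher. Among 19 cholesterol genes 2 were higher and 2 lower. Sc5d, a sterol desaturase, read 84.4, 62.6, 72.0 and 63.1 in BALB/c, against 266, 246, 219 and 252 in C57BL/6 (-1.60 ± 0.13, adjusted p = 8.9e-09), above means of 51.4 to 80.2 in the other strains. It was called at 1 of 2 probe sets. Mvk, mevalonate kinase, was higher by 0.46 at readings near the floor. The calls of Nsdhl (higher) and Dhcr7 (lower), late enzymes of the pathway, were lost without 6 and 4 of the 8 arrays in turn, at adjusted p of up to 0.12 without C57BL/6 replicate 1 and 0.086 without BALB/c replicate 4. In the respiratory chain 6 of 34 genes were higher and 1 lower, and 27 had positive differences (median 0.12). Ndufa1, a subunit of complex I, averaged 3864 ± 185 in BALB/c and 2090 ± 91 in C57BL/6 (0.88, adjusted p = 2.6e-07), and Sdha, of complex II, was lower by 0.47. The higher calls numbered 3 after quantile normalization and 2 in a fit to the 8 arrays alone. Atp5a1, a subunit of ATP synthase, was higher by 0.52, and Cox6c (0.48) lost its call without BALB/c replicate 1 (adjusted p = 0.053). Of 24 ribosomal protein genes 2 were higher and 1 lower, while 0 were higher and 3 lower after quantile normalization and 2 were higher and 3 lower with the deposited scaling. After quantile normalization the list's median turned to -0.10, against 0.13 after rescaling. Rps18 and Rps29 were higher by 0.58 and 0.49, and stood at 0.17 and 0.01 after quantile normalization. Rps6 was lower at 95.1 ± 8.5 in BALB/c and 236 ± 43 in C57BL/6, at 1 of 2 probe sets.

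Zinc and metallothionein genes had 2 of 16 members higher and 2 lower (median 0.00). The zinc importer Slc39a6 was lower at 81.3 ± 20.5 in BALB/c and 225 ± 52 in C57BL/6 (-1.31, adjusted p = 1.1e-05), and the importer Slc39a8 was higher at 413 ± 75 in BALB/c and 200 ± 17 in C57BL/6 (0.98, adjusted p = 9.6e-04), each at 1 of 2 probe sets. Calls of the metal-binding Mt3 (higher) and Mt2 (lower) were lost without 7 and 5 of the 8 arrays in turn, at adjusted p of up to 0.089 without C57BL/6 replicate 2 and 0.12 without BALB/c replicate 2. Of 16 heat shock genes 1 was called: Hspb8, a small heat shock protein that works with the autophagy factor BAG3, read 55.6, 74.6, 44.1 and 74.6 in BALB/c, against 198, 187, 190 and 185 in C57BL/6 (-1.42 ± 0.12, adjusted p = 2.9e-08, at 3 of 3 probe sets). St6galnac4, which adds sialic acid to O-glycans, averaged 75.6 ± 9.7 in BALB/c and 18.4 ± 4.3 in C57BL/6 (1.42, adjusted p = 2.7e-06), at 2 of 2 probe sets. Among 38 glycosylation genes it and B3gnt2, which extends lactosamine chains and was higher by 0.60, were the only members called. Of 14 complement genes Clu and Cd55 were higher and C1qb was lower, and of 13 macrophage genes Csf1r was higher and C1qb lower. Cd55, a brake on complement at the cell surface, averaged 47.8 ± 5.6 in BALB/c and 20.3 ± 6.1 in C57BL/6 (0.82, adjusted p = 9.6e-04). The C1qb call was lost without 6 arrays in turn (adjusted p up to 0.13, without C57BL/6 replicate 2) and the Csf1r call without BALB/c replicate 4 (0.051).

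Interferon, vascular and red cell lists had 12%, 16.7% and 33.3% of their members called, against 9.63% of all genes, and most of these calls depended on single arrays. Of 25 interferon response genes 1 was higher and 2 were lower. Oasl2, induced by interferon, averaged 27.1 ± 8.0 in BALB/c and 66.3 ± 7.6 in C57BL/6 (-0.95, adjusted p = 0.011). The calls of Ifit2 (lower) and Isg20 (higher) were lost without 7 and 6 of the 8 arrays in turn, at adjusted p of up to 0.14 without C57BL/6 replicate 1 and 0.17 without C57BL/6 replicate 3. Of 12 endothelial genes Esam was higher and Tek lower, with calls lost without BALB/c replicate 2 for Esam (adjusted p = 0.060) and without 5 arrays in turn for Tek (up to 0.081, without BALB/c replicate 4). Alas2, the red cell form of the first heme enzyme, was called higher among 3 red cell genes, and that call was lost without 4 arrays in turn (adjusted p up to 0.11, without C57BL/6 replicate 4).

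**Figure D5:**
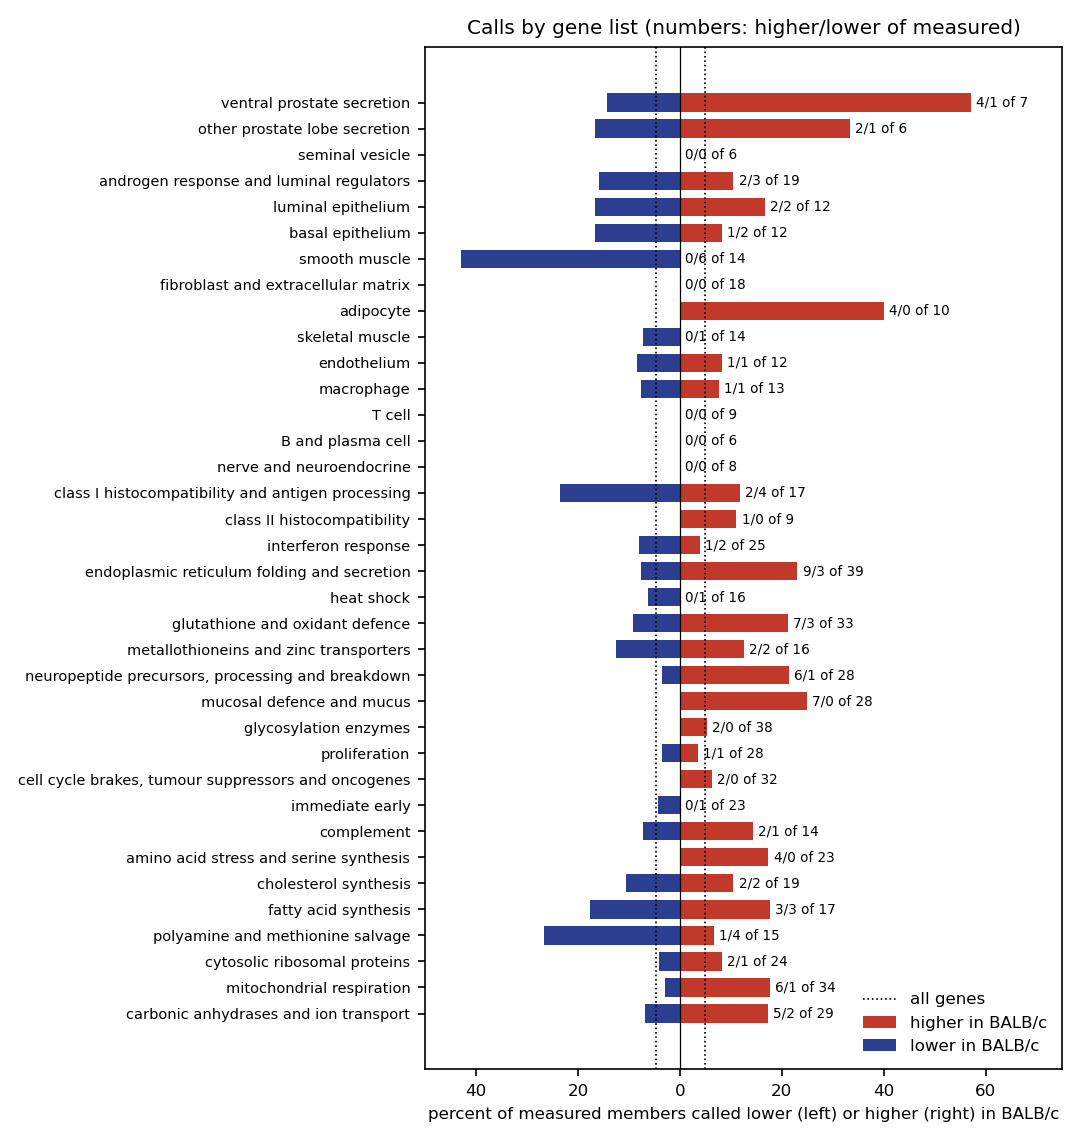
For each list with at least 5 measured genes, other than the reported strain differences, bars give the percentage of measured members called lower (blue, to the left) or higher (red, to the right) in BALB/c than in C57BL/6, with the counts beside them. Dotted lines mark the shares among all genes, 4.91% higher and 4.72% lower.

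The remaining genes among the 15 largest differences each way fall outside these lists. In BALB/c the secreted ribonuclease Rnase1 read 1293, 1494, 1505 and 1722, against 192, 194, 292 and 149 in C57BL/6 (2.80 ± 0.47, adjusted p = 3.3e-04). Cap1, which recycles actin monomers, averaged 436 ± 48 in BALB/c and 62.1 ± 8.8 in C57BL/6 (2.53 ± 0.12, adjusted p = 4.8e-13, at 2 of 2 probe sets), and AKR, at 81.3, shared the low level. Tmem87a, a membrane protein, averaged 202 ± 27 in BALB/c and 12.4 ± 8.8 in C57BL/6, and here C57BL/6 stood alone, with means of 203 to 236 in the other strains. Cfap298, named for a role in motile cilia, averaged 169 ± 38 in BALB/c and 12.4 ± 1.2 in C57BL/6, at 2 of 4 probe sets, and BALB/c stood alone. Rpl27a, a ribosomal protein gene, was higher at 1 of 2 probe sets, and Rps9, another, was lower at 1 of 3.

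Among the lower genes Cyp2b10, a cytochrome P450 that metabolises drugs and steroids, read 89.9, 82.9, 161 and 108 in BALB/c, against 415, 462, 811 and 590 in C57BL/6 (-2.21 ± 0.24, adjusted p = 1.2e-06, at 3 of 3 probe sets). Aldh1a7, an aldehyde dehydrogenase, averaged 224 ± 28 in BALB/c and 849 ± 83 in C57BL/6, which was above all other strains. Coro2a, an actin-binding coronin, averaged 54.2 ± 5.2 in BALB/c and 241 ± 34 in C57BL/6, with the other strains between 355 and 436. Pdxdc1 had a similar shape, at 28.4 ± 5.8 in BALB/c and 267 ± 21 in C57BL/6, but of its 4 probe sets 2 were called lower and 1 higher. Stk25, a protein kinase, averaged 70.2 ± 9.0 in BALB/c and 419 ± 54 in C57BL/6, and Dnase1l2, a nuclease, 15.8 ± 6.6 and 142 ± 7, both with C57BL/6 above the other 5 strains. Rpgrip1, known from photoreceptors, was lower at 1 of 4 probe sets, and Syt17 at 1 of 2. Cxcl15, a chemokine first described in lung, averaged 18.7 ± 16.5 in BALB/c and 123 ± 36 in C57BL/6 (-2.08, adjusted p = 2.3e-05).

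Probe sets without a single gene name included larger differences still. Of the 8 probe sets at least 10-fold lower in BALB/c, 7 had no symbol in the annotation used. The largest was 1431213_a_at, which read 22.1, 21.6, 22.7 and 24.0 in BALB/c, against 4410, 4599, 5945 and 4274 in C57BL/6 (-6.95 ± 0.20, adjusted p = 1.0e-16). The probe set 1431214_at averaged 8.30 ± 1.30 in BALB/c and 2436 ± 313 in C57BL/6. The 2 did not follow each other across strains, since SWR averaged 3175 at the first and 15.3 at the second. On the higher side 1451704_at, annotated to several genes, read 8531, 9003, 7902 and 8466 in BALB/c, against 172, 217, 99.9 and 247 in C57BL/6 (5.47 ± 0.28, adjusted p = 4.1e-12), and was among the 20 brightest probe sets in BALB/c. These probe sets were chosen after their values were seen.

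A minority of called genes had a chromosomal neighbour called in the same direction, in the order of RefSeq's annotation. Their shares are set beside those of genes not called, without a test. Only measured genes with a name were ordered, so unmeasured genes can lie between neighbours. Of 607 genes higher in BALB/c with a place in that order, 16.8% had a higher neighbour and 8.40% a lower one. Of 584 lower genes, 16.4% had a lower neighbour and 8.73% a higher one. Genes not called had a higher neighbour in 9.17% and a lower one in 8.81% of cases. The longest run held 4 higher genes, Csgalnact1, which starts chondroitin chains, Lpl, Slc18a1, a vesicle transporter of amines, and Atp6v1b2, a subunit of the vesicular proton pump, at log2 differences of 0.89, 1.91, 0.65 and 0.47. Csgalnact1 was called at 1 of 2 probe sets, Lpl at 2 of 2, Slc18a1 at 1 of 1 and Atp6v1b2 at 1 of 3. The Slc18a1 call was lost without 6 arrays in turn, at adjusted p of up to 0.11 without BALB/c replicate 2, which would shorten that run. There were 6 runs of 3, among them the defensins Defb1, Defb2 and Defb10, the genes Pla2g4f, Vps39 and Tmem87a, and, lower, Ephb6, Trpv6 and Kel.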

How the data were processed

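Total RNA, extracted with Trizol per the labels' protocols, was labelled with biotin and hybridised to 24 Affymetrix arrays. Values were analysed as deposited, a linear intensity for each probe set on each array. Per the submitters' processing notes the software was MAS5, whose version and settings are not given in the sources used here. The deposited columns shared 1 mean (143), and there were 11 zeros and no missing values. Arrays have no count depth, so their number limits the precision, and detection calls were not used here.

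A single factor per array brought all of them to the same mean after trimming 2% at each end, 98.7 (range before, 91.4 to 105), 16 was added and log2 was taken. Folds of faint transcripts are therefore compressed. Of 22690 probe sets, 64 controls were left out. The platform annotation gave 20380 of the 22626 tested probe sets 1 symbol, 691 several and 1555 none. Of those with 1 symbol 20351 matched RefSeq (GRCm38.p6), used for names, gene order and promoters. Several prostate genes carry no single name in it and were not analysed here.

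limma 3.58.1 in R 4.3.3 fitted 1 coefficient per strain over all 24 arrays, with empirical Bayes moderation and Benjamini-Hochberg adjustment over all probe sets, and a call is an adjusted p below 0.05. Array measures were compared by exact two-sided permutation tests (SciPy 1.17.1). The workflow was tested on simulated data. Replicates are labelled biological, and no label says that they came from separate litters or days.

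Named are the 15 largest differences each way among called probe sets whose arrays do not overlap (brightest such probe set per gene), up to 4 called members per list with the largest differences, all reported strain differences, and runs of at least 4 neighbouring genes. Other members, unnamed probe sets and the 20 brightest probe sets were named after their values were seen. The members and the 38 gene lists (703 of 810 entries measured) were chosen with earlier results of these data known. No label pairs the arrays by replicate number. Same-number correlations of deviations from the strain means were 0.05, 0.07, 0.04 and 0.04, and those of differing numbers lay between -0.12 and 0.16. Such values cannot exclude a shared batch, as deviations within a strain must average to 0. Alternatives were pseudocounts of 1 and 64, no rescaling, quantile normalization, a filter at the 40th percentile on at least 4 arrays, the 8 arrays alone, an intensity trend, a replicate block, each of the 8 arrays left out, and, for lists, averaged probe sets.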

Additional observations from a re-analysis of the deposited data

Results flagged for a closer look

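Among 282 sets of 4 arrays (141 named genes and probe sets in both strains), 17 held 1 array whose gap to the nearest other array, as a share of the range, passed Dixon's 95% critical value for 4 samples. That is 6.03%, where chance gives about 5%. No explanation was tested.

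BALB/c replicate 1 was the highest for Ide (0.923), Scd2 (0.91) and Tlr4 (0.952, at 80.2 against 49.5 to 50.8 on the other BALB/c arrays). BALB/c replicate 2 was the lowest for 1417714_x_at (0.901, at 160 against 363 to 396) and Azgp1 (0.843), and the highest for Pde6b (0.94) and Tac1 (0.919). BALB/c replicate 3 was the highest for Mcm6 (0.889) and the lowest for Rpgrip1 (0.971), and BALB/c replicate 4 was the lowest for Klrd1 (0.92). C57BL/6 replicate 1 was the highest for Krt14 (0.869) and Qpct (0.856), and C57BL/6 replicate 2 the lowest for Dhcr7 (0.931). C57BL/6 replicate 3 was the highest for Mt3 (0.88) and Rps29 (0.83). C57BL/6 replicate 4 was the highest for Dock2 (0.915) and the lowest for Tac1 (0.86, at 47.6 against 82.7 to 90.1 on the other C57BL/6 arrays).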

How the results depend on the processing

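The count of 2215 differing probe sets was 1215 in a fit to the 8 arrays alone (606 higher in BALB/c, 609 lower), which leaves fewer degrees of freedom, and between 1596 and 2311 with 1 array left out. With 1 array left out, the counts were between 763 and 1097 higher, between 833 and 1214 lower, and between 370 and 452 at least 2-fold. The 2-fold count of 376 was 723 with a pseudocount of 1 and 164 with 64, as the pseudocount sets how far faint differences are compressed. With the deposited scaling 1761 probe sets were lower, in place of 1168, and the median over all probe sets moved by -0.06. The other settings kept these counts within 1.5 times.

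A replicate block gave 2155 calls (1013 higher, 1142 lower, 374 at least 2-fold). No label pairs the arrays by replicate number, and the block changed none of these whole-array counts by over 1.5 times. In the gene lists it took counts of 1 to 0 for macrophage, neuropeptide and complement genes (lower) and for interferon and proliferation genes (higher).

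Of 141 named genes and probe sets 119 were called, 82 of them under all 16 alternatives, 37 lost their call under at least 1, and 0 turned. Limits: 4 arrays per strain, no detection calls, faint readings near the floor, abundant transcripts that depend on the scaling, probe sets of a gene that disagree, and probe-level sequence differences between strains, not tested.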
